A study of Mus musculus with 4 samples.

Results

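Olig1, Olig2, Pdgfra, Sox10 and Cspg4, 5 of the 32285 genes in the deposited matrices, were followed across the cells of the mouse medial ganglionic eminence (MGE), a ventral germinal zone of the developing forebrain. The genes were chosen by symbol, as the Olig transcription factors of ventral progenitors together with 3 genes that mark oligodendrocyte precursors. They were read in barcodes with at least 2000 unique molecular identifiers (UMIs, 1 per captured transcript) and at most 10% mitochondrial UMIs. Droplet single-cell RNA sequencing had been performed on e14.5 embryos, with 2 libraries from St18 (-/-) littermates (null) and 2 from WT (+/+) littermates. The parents were heterozygous and of a C57/BL6 ICR mix, and tissue of genotyped embryos was pooled by genotype, so each library is 1 pool. The null allele had been made by crossing a conditional St18 allele to germline E2a-Cre, so St18, a zinc finger transcription factor, was removed from the whole animal and not from the MGE alone. How many embryos, and of which sex, made up a pool was not stated. Null and WT were compared to see whether the Olig and precursor genes changed when St18 was lost, and the comparisons within libraries ask where in the MGE these genes were detected together.

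Olig1 and Olig2 encode basic helix-loop-helix transcription factors that lie next to each other in the genome. Olig2 is used broadly by dividing progenitors of the ventral forebrain, and both factors are required for the oligodendrocyte lineage. When a progenitor commits to that lineage it switches on Sox10, a transcription factor that later drives myelin genes, Pdgfra, the receptor through which platelet-derived growth factor keeps precursors dividing, and Cspg4, which encodes the NG2 proteoglycan of the precursor surface. The MGE is one of the first places in the forebrain where such precursors arise, while most of its progeny at this age are neurons.

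In the GENCODE M21 annotation of GRCm38, Olig2 (ENSMUSG00000039830) lies at chr16:91225457-91228677 and Olig1 (ENSMUSG00000046160) at chr16:91269772-91271933, both on the plus strand with 41094 bases between them. Pdgfra (ENSMUSG00000029231) lies at chr5:75152292-75198215 on the plus strand, Sox10 (ENSMUSG00000033006) at chr15:79154908-79165240 on the minus strand, and Cspg4 (ENSMUSG00000032911) at chr9:56865033-56899870 on the plus strand. All 5 are annotated as protein-coding. RefSeq promoters (GRCm38.p6, 250 bases before the start that RefSeq gives to 50 after it, plus strand) were matched for 3 of the 5 genes, and RefSeq's starts are not those given above. They are shown because only these 3 had a matched promoter, and capitals mark the only searched motif that was found.

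Olig2, chr16:91225300-91225599: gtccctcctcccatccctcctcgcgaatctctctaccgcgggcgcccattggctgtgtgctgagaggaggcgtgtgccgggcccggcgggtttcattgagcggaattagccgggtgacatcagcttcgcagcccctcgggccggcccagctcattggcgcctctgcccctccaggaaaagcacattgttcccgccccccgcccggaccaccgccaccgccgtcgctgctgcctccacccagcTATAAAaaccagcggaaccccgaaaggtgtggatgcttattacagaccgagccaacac
Pdgfra, chr5:75152001-75152300: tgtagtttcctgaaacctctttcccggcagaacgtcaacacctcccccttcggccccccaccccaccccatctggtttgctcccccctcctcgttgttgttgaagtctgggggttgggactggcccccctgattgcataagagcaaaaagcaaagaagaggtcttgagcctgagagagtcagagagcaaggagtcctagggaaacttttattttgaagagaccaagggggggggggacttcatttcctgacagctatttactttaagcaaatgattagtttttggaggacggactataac
Cspg4, chr9:56864854-56865153: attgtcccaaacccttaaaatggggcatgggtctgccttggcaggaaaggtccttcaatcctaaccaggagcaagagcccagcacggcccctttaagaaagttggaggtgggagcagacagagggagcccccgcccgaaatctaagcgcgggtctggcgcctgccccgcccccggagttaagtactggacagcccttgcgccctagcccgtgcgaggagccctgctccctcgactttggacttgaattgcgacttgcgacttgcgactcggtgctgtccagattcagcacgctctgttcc

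On both strands, 3 motifs were searched, which do not overlap: the E-box CAGCTG, the Sox motif ACAAAG and the TATA motif TATAAA. Only TATAAA was found, once, in the Olig2 window at position 243 of 300. Of all 32851 promoters of the same length, 16.3% held CAGCTG, 18.7% held ACAAAG and 13.6% held TATAAA. G and C made up 65% of the bases of the Olig2 window, 60% for Cspg4 and 51% for Pdgfra.

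The matrices held 70991150 to 92984713 UMIs per library, and the filters kept 4297 to 6800 cells per library, 20289 in all, once 942 cells had been removed for high doublet scores. The median UMIs per cell were 6697 and 8678 in the null libraries and 6005 and 5857 in the WT libraries before that step, so the main shares of progenitors with a UMI are also given for cells thinned to 2000 UMIs. Any 2 libraries shared 5 to 12 cell barcodes. The St18 transcript was not lower than in WT in 1 library labelled null: its level in progenitors was 15.4 and 41.97 CPM (the UMIs of a gene scaled to a common total of UMIs, over the summed cells of a library) for null replicates 1 and 2, beside 29.4 and 36.6 CPM for WT replicates 1 and 2. The study describes a recombined allele with a frame shift whose transcript remains detectable, and reports the lower level in neurons. In neurons here St18 was at 25.3 and 79.4 CPM for null replicates 1 and 2. For WT replicates 1 and 2 it was at 45.5 and 60.8 CPM. Counts at the 3′ end do not show whether a transcript is functional, so this level is no direct check of the label, and libraries are named by their label throughout. Xist, the RNA of the inactive X chromosome, was at 610 and 1338 CPM in null progenitors and at 0.300 and 0.0746 CPM in WT progenitors, so the sex of the pooled embryos and the genotype cannot be told apart. Each genotype had 2 pools, and p-values do not cover any spread beyond these pools.

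The cells were clustered with the 5 genes and 20 other listed precursor genes left out of the variable genes. Of 27 clusters, 8 were named progenitor-like (8424 cells), 15 neuron-like (11473 cells) and 1 each oligodendrocyte precursor-like (OPC-like, 39 cells), erythroid-like, microglia-like and pallial-like, from fixed marker lists, and these are called by the cell type for short. The OPC-like cluster held 12, 13, 8 and 6 cells in null replicates 1 and 2 and WT replicates 1 and 2, the order of all lists of 4 values here. Its leading genes by fold over all other cells were Olig1, Pdgfra, Sox10, Cspg4, Spry4, Gpr17, Egr1, Cbr3, Tril and Lhfpl3. Of its 39 cells, 38 had an Olig1 UMI, 38 an Olig2 UMI, 35 Pdgfra, 29 Cspg4 and 28 Sox10. Since the cluster was built from these cells, its levels are a description with no test. Pdgfra, Sox10 and Cspg4 were also among the markers used to name it, so their height there was not independent of the name. At the alternative clustering resolution of 0.8 no cluster was named OPC-like, so this cluster depends on the resolution.

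Olig2 was the member detected across progenitors. Its level was 112, 110, 91.3 and 97.4 CPM in the progenitors of the 4 libraries, a mean of 103 ± 10.1 (SD, n = 4), and 9.94 ± 1.89 CPM in neurons. In the OPC-like cluster it was at 701, 605, 739 and 620 CPM, a mean of 666 ± 64.4. Every library had Olig2 higher in the OPC-like cluster than in progenitors and higher in progenitors than in neurons, without overlap. Pallial cells (10.4 ± 17.4 CPM) and microglia (10.3 ± 10.5) did not differ from neurons beyond their spread, and erythroid cells (2.25 ± 1.85) were lowest. An Olig2 UMI was found in 45.1%, 46.7%, 38.2% and 38.04% of progenitors, against 0, 2.44%, 5.71% and 3.12% of erythroid cells, a blood lineage in which Olig2 is not used. In thinned cells the progenitor shares were 17.6%, 15.1%, 13.99% and 13.9%. Those erythroid cells had a median of 11345 UMIs against 8565 in progenitors, and the shares of neurons with Olig2 (6.39%, 7.70%, 4.18% and 4.33%) lay within the 95% intervals of the erythroid ones. Droplets with under 100 UMIs, taken as free RNA, held Olig2 at 72.0, 55.5, 41.6 and 51.9 CPM, so free Olig2 RNA was higher in the null libraries as well.

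Olig1 was found in few progenitors. Its level there was 6.13, 8.91, 4.38 and 6.86 CPM, a mean of 6.57 ± 1.88 (n = 4), and 1412, 1211, 1264 and 664 CPM in the OPC-like cluster, a mean of 1138 ± 327. All 4 libraries were far higher in the OPC-like cluster, with a ratio of means of 173. Progenitors and microglia (5.57 ± 6.44 CPM) did not differ beyond their spread, neurons were at 0.950 ± 0.532 CPM, and no Olig1 UMI was found in erythroid or pallial cells. The same ratio of OPC-like cluster to progenitors was 6.49 for Olig2. An Olig1 UMI was found in 3.78%, 4.96%, 2.76% and 3.69% of progenitors, and in 1.04%, 1.73%, 0.802% and 1.29% of thinned ones, where null and WT overlapped.

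Pdgfra, Sox10 and Cspg4 were nearly confined to small numbers of cells. Pdgfra was at 927, 1128, 1156 and 369 CPM in the OPC-like cluster, a mean of 895 ± 365, at 4.09 ± 2.46 CPM in progenitors and at 1.93 ± 0.528 CPM in neurons, and the last pair overlapped between libraries. Sox10 was at 156, 181, 191 and 88.5 CPM in the OPC-like cluster and had 4, 23, 1 and 7 UMIs in the progenitors of whole libraries. Cspg4 was at 268, 290, 334 and 103 CPM in the OPC-like cluster and at 0.819 ± 0.254 CPM in progenitors. For all 3 genes WT replicate 2 was the lowest library in the OPC-like cluster, where it contributed 6 cells. Cspg4 was the member with a further class above progenitors in every library: microglia held it at 60.9, 73.1, 14.3 and 60.1 CPM, a mean of 52.1 ± 25.9. Of 137 microglia, 24 had a UMI of at least 1 of the 3 genes, and in 23 of these it was Cspg4 alone.

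**Figure D1:**
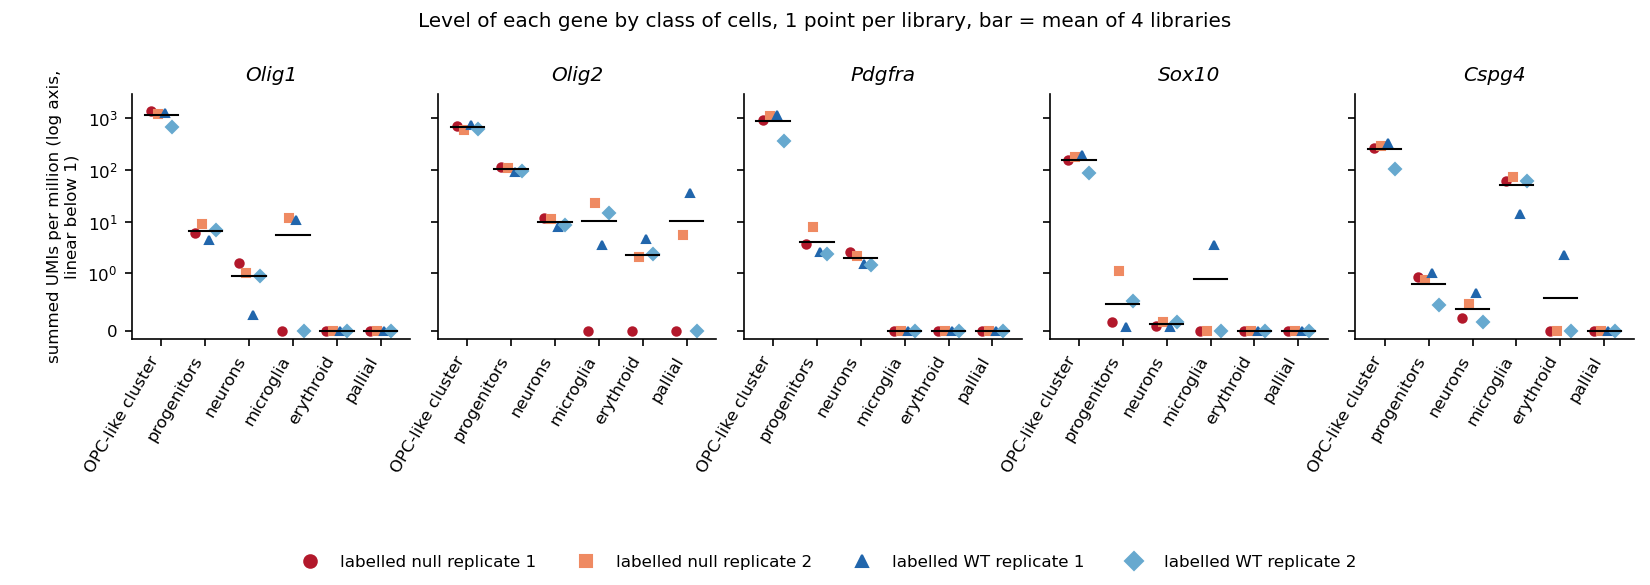
Level of each of the 5 genes (CPM, log axis that is linear below 1) by cell class, with 1 point per library and the mean over the 4 libraries. Each gene is highest in the OPC-like cluster, whose naming markers included Pdgfra, Sox10 and Cspg4. Olig2 alone stands above 90 CPM in progenitors, and Cspg4 has a second class, microglia, above progenitors.

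Progenitors were compared with neurons within libraries, on counts summed per library and class (edgeR's quasi-likelihood test, library as a block, Benjamini-Hochberg adjustment over 13774 genes). Sox10 did not pass the filter on low counts, and the other 4 genes were higher in progenitors, beside 39.7% of all genes tested. The difference was 3.42 on the log2 scale for Olig2 (SE 0.06, adjusted p = 2.73e-16), 2.76 for Olig1 (SE 0.20, adjusted p = 3.96e-09), 1.24 for Cspg4 (SE 0.32, adjusted p = 0.00235) and 1.09 for Pdgfra (SE 0.19, adjusted p = 8.48e-05). The levels of Olig1 and Olig2 in the 2 classes did not overlap between libraries, while those of Pdgfra and Cspg4 did. Since the classes came from clustering of the same cells, the p-values describe how evenly the libraries show the difference.

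Among the 8 progenitor clusters, cluster 16 had the highest mean level of each of the 5 genes. Its leading genes were Sulf1, Bcan, Rlbp1, Fabp7, Sparcl1, Wnt7b, Slc1a3, Kcnj10, Mmd2 and E130114P18Rik, of which Slc1a3 and Kcnj10 encode a glutamate transporter and a potassium channel of radial glia and astrocytes. It held 5.92%, 6.46%, 4.31% and 5.80% of the progenitors. Olig2 was at 253, 286, 246 and 218 CPM there, a mean of 251 ± 27.7, followed by cluster 2 at 154 ± 13.6 and by 5 clusters between 68.6 and 88.6 CPM that mostly overlapped. Cluster 8 was lowest at 25.9 ± 5.14 CPM. The lowest library of cluster 16 was above the highest of cluster 2, and the lowest of cluster 2 was above the highest of the next cluster.

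Olig1 was at 38.1, 64.0, 30.6 and 52.7 CPM in cluster 16, a mean of 46.4 ± 14.9, with the next cluster, 6, at 12.5 ± 4.999 CPM and no overlap. Pdgfra was at 15.8, 29.5, 24.1 and 7.53 CPM in cluster 16, a mean of 19.2 ± 9.62, and at 5.32 ± 1.91 CPM in the next. Within each library Pdgfra was highest in cluster 16, but across libraries cluster 16 overlapped with cluster 2, which reached 9.36 CPM in null replicate 2, where 2 precursor-gene cells of cluster 2 held 16 and 23 of the 44 Pdgfra UMIs. Cluster 16 also held 5 precursor-gene cells (cells with at least 2 of Pdgfra, Sox10 and Cspg4). In null replicate 2 they had 4, 16 and 1 UMIs of Pdgfra and 13, 9 and 0 of Olig1. In WT replicate 2, 1 such cell had 14 UMIs of Olig1. The levels of cluster 16 without the precursor-gene cells were not computed. In WT replicate 2 its Pdgfra level rested on 3 cells with 1 UMI and 1 cell with at least 2. Sox10 (3.896 ± 3.43 CPM) and Cspg4 (1.91 ± 1.89 CPM) overlapped with other clusters, so their order was not resolved.

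**Figure D2:**
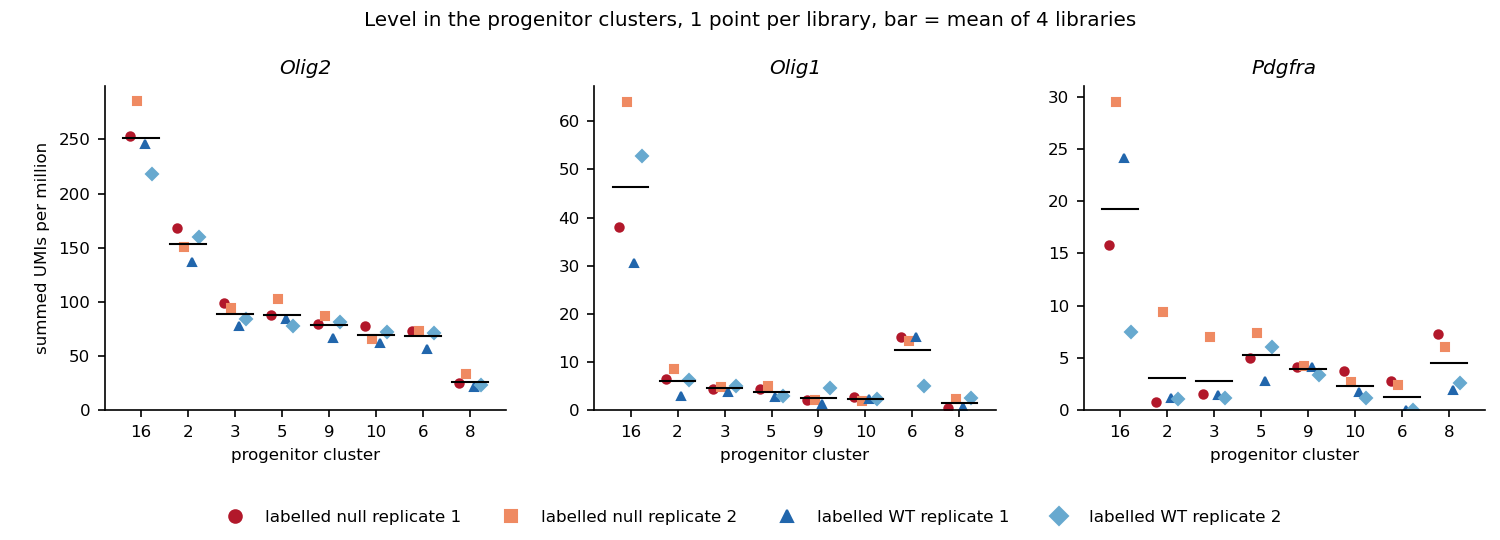
Levels (CPM) of Olig2, Olig1 and Pdgfra in the 8 progenitor clusters, with 1 point per library and the mean. Within each library cluster 16 lies above all others for Olig2, Olig1 and Pdgfra, the last on few cells in WT replicate 2. Cluster 8 has the least Olig2, at a mean of 25.9 CPM.

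In progenitors, no member passed the test between null and WT (edgeR's quasi-likelihood test on counts summed per library, 13565 genes), beside 0.0295% of all genes tested, which is 4 genes (Gm2000 and Hist1h4c lower in null, Tsix and Xist higher). That number depends on the libraries and the scaling: it was 4628 without null replicate 1, 1987 without null replicate 2 and 430 with library totals. Unadjusted p-values were under 0.05 for 18.1% of all genes and for 1 of the 4 members tested. Olig2 differed by 0.05 on the log2 scale (SE 0.11, 95% interval -0.18 to 0.27, adjusted p = 0.852), although its CPM in both null libraries lay above both WT libraries. With library totals in place of TMM scaling the median of all genes moved to 0.19 and Olig2 to 0.24, so relative to other genes the Olig2 difference stayed near 0.05. Olig1 differed by 0.23 (SE 0.24, 95% interval -0.25 to 0.70, adjusted p = 0.639) and its libraries overlapped. In null replicate 2, 48 of its 183 UMIs (26.2%) came from 5 progenitor cells with at least 2 of Pdgfra, Sox10 and Cspg4, and without such cells in any library Olig1 was at 6.14, 6.59, 4.38 and 5.83 CPM, with null above WT. Cspg4 differed by 0.07 (SE 0.43, 95% interval -0.76 to 0.91, adjusted p = 0.944). Sox10, with 35 UMIs in all progenitors, did not pass the filter.

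Pdgfra had the largest difference of the members between null and WT progenitors. It had 102, 158, 44 and 32 UMIs, or 3.65, 7.69, 2.64 and 2.39 CPM, and both null libraries lay above both WT libraries. The log2 difference was 0.94 (SE 0.34, 95% interval 0.28 to 1.60), with an unadjusted p of 0.0233 and an adjusted p of 0.217 in edgeR's quasi-likelihood test. In null replicate 2, 60 of the 158 UMIs (37.97%) came from 5 progenitor cells that held at least 2 of Pdgfra, Sox10 and Cspg4. Without such cells in any library the levels were 3.52, 4.79, 2.64 and 2.32 CPM, still with null above WT. The adjusted p over the alternatives ranged from 0.000317 to 0.752, and it passed the threshold in 2 of 14, without null replicate 1 (1.35) and with no filter on low counts (0.94). Without null replicate 2 the difference was 0.41 (adjusted p = 0.389). Free RNA was higher in the null libraries too, though with null replicate 1 above null replicate 2: droplets with under 100 UMIs held Pdgfra at 6.41, 4.51, 2.22 and 2.10 CPM, and its part in the result was not tested.

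The difference between progenitors and neurons was also compared between genotypes. No member passed this test of the interaction, beside 1.05% of all genes. Olig2 had the lowest unadjusted p of the members, 0.00847, with a log2 value of -0.32 (SE 0.11, adjusted p = 0.275), since its neuron level was 11.7 and 11.5 CPM in null against 7.98 and 8.67 in WT. The values for Olig1 (-0.83, adjusted p = 0.608), Pdgfra (0.34, adjusted p = 0.848) and Cspg4 (0.52, adjusted p = 0.877) had SEs of 0.47, 0.40 and 0.71.

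Of the gene lists set beside the members, none had a gene past the test between null and WT progenitors. Among 12 Hedgehog pathway genes 8 had an unadjusted p under 0.05, as did 4 of 9 Notch pathway genes, 5 of 17 gliogenic and ventral factors and 0 of 13 tested precursor genes, beside the 18.1% of all genes. The median log2 differences of these lists were 0.37, 0.27, 0.09 and 0.18. The PDGF list had 3 genes that passed the filter, Pdgfa (0.15), Pdgfc (0.01) and Pdgfrb (0.25), with adjusted p-values from 0.578 to 0.981.

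Shares of cells were compared as well. A UMI of Olig1 or Olig2 was found in 46.2% and 47.9% of null progenitors and in 38.9% and 39.1% of WT progenitors. The means were 47.0% ± 1.22 and 39.0% ± 0.163 (SD, n = 2), a difference of 8.05 percentage points. After each cell was thinned to 2000 UMIs the shares were 18.1%, 16.1%, 14.6% and 14.8%, and the difference of means was 2.36 points, or 1.36 without null replicate 1 and 3.35 without null replicate 2. As a ratio of the means of null to WT the difference was 1.21 before and 1.16 after thinning. Null was above WT in both forms, and the two-sided exact permutation p of 0.333 is the smallest that 2 against 2 libraries allow. Pdgfra was detected in 2.71%, 4.50%, 1.81% and 1.76% of progenitors, with null above WT. In thinned cells its shares were 0.736%, 1.21%, 0.752% and 0.645%, where null replicate 1 lay below WT replicate 1 (exact permutation p = 0.667).

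**Figure D3:**
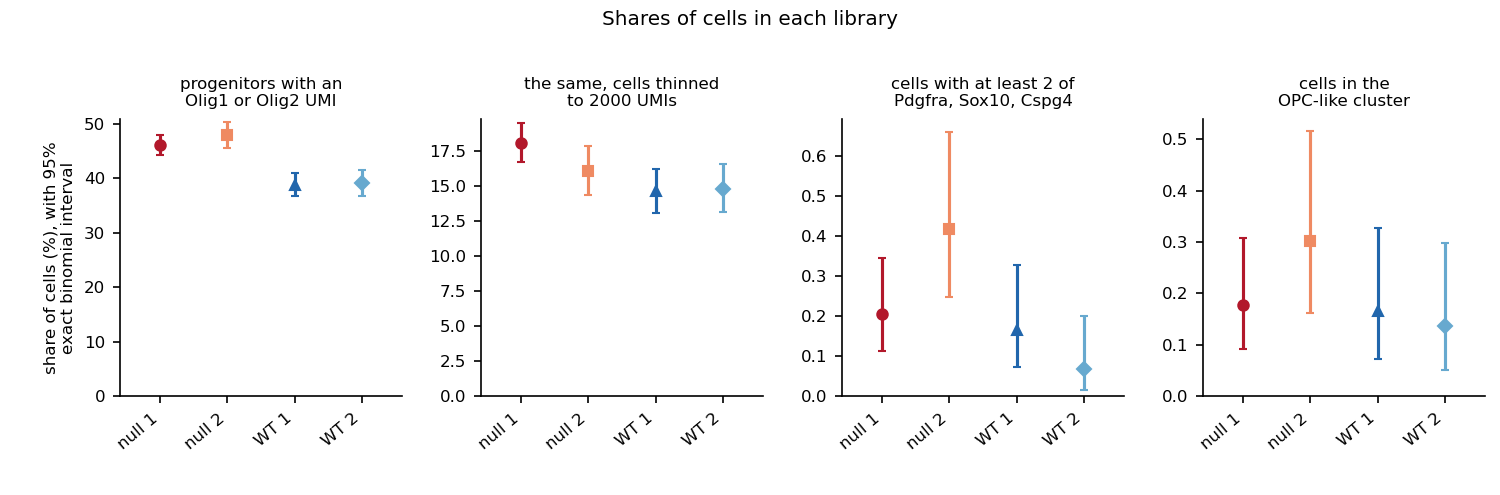
Shares of cells (%) by library with 95% exact binomial intervals, which cover counting error only. Null libraries lie above WT libraries for progenitors with an Olig UMI, with a ratio of null to WT of 1.21 over all UMIs and 1.16 after thinning, and for precursor-gene cells and the OPC-like cluster, where the intervals of null replicate 1 overlap those of both WT libraries.

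Over all classes, 499 of 20289 cells had a UMI of at least 1 of Pdgfra, Sox10 and Cspg4, of which 298 were progenitors, 139 neurons, 37 of the OPC-like cluster, 24 microglia and 1 erythroid. At least 2 of the 3 genes were found in 43 cells, called precursor-gene cells here. They numbered 14, 18, 8 and 3 by library, and 30 lay in the OPC-like cluster, 9 among progenitors and 4 among neurons. All 43 had Pdgfra, together with both other genes in 27 cells, with Sox10 alone in 9 and with Cspg4 alone in 7. All 43 also had an Olig UMI: 35 had both Olig genes, 6 Olig2 alone and 2 Olig1 alone.

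The strongest single cells had many UMIs of several members at once. In null replicate 2, the cell with most Olig1 (53 UMIs among 23431) had 19 of Olig2, 28 of Pdgfra, 8 of Sox10 and 4 of Cspg4. A WT replicate 1 cell with 20271 UMIs had 22 of Olig1, 15 of Olig2, 23 of Pdgfra, 1 of Sox10 and 7 of Cspg4. Over the 43 cells the median was 12 UMIs of Olig1 (0 to 53), 7 of Olig2 (0 to 19), 7 of Pdgfra (1 to 41), 2 of Cspg4 (0 to 12) and 1 of Sox10 (0 to 8).

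The 13 precursor-gene cells outside the OPC-like cluster were unlike each other. In null replicate 2, 4 progenitor cells, 2 in cluster 2 and 2 in cluster 16, had 9 to 16 UMIs of Olig1 and 4 to 23 of Pdgfra, counts in the range of the OPC-like cluster. Cspg4 was found in 1 of these 4. The other 3 of null replicate 2, 1 progenitor and 2 neurons, had no Olig1 UMI and 1, 6 and 1 UMIs of Pdgfra. The 5 such cells of null replicate 1 had 0 to 2 UMIs of Olig1 and 1 to 3 of Pdgfra. WT replicate 2 had 1, with 14 UMIs of Olig1 and 1 each of Pdgfra and Sox10, and WT replicate 1 had none.

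**Figure D4:**
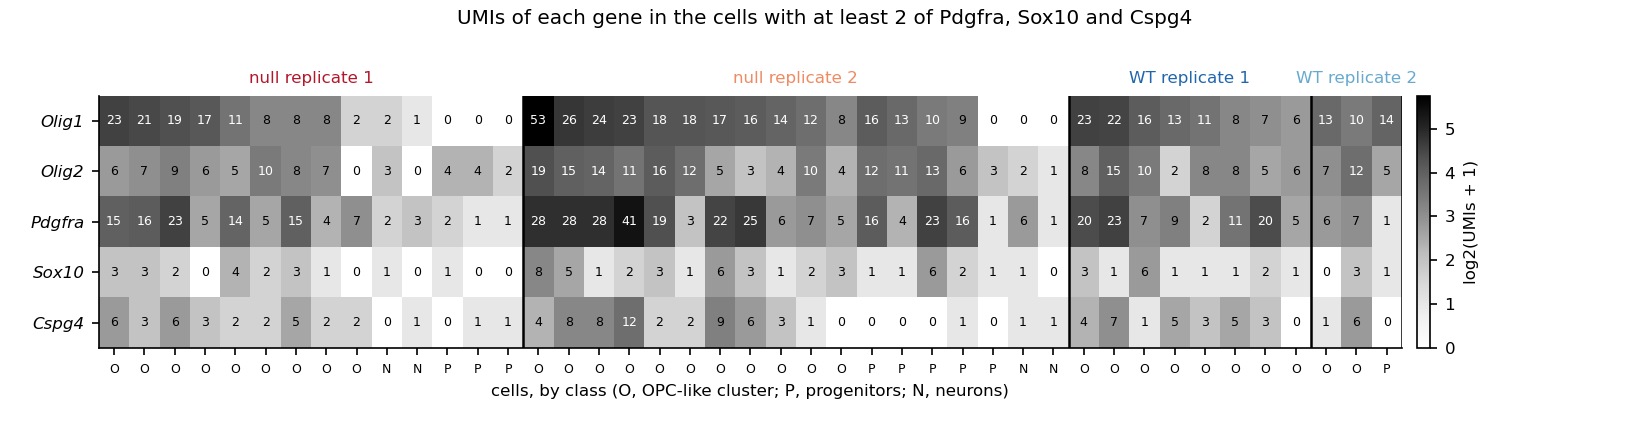
UMIs of each member in each of the 43 cells with at least 2 of Pdgfra, Sox10 and Cspg4, grouped by library and ordered by class and by Olig1. All but 8 of the cells hold both Olig genes, and the cells outside the OPC-like cluster are mostly in null replicates 1 and 2.

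Olig UMIs were found more often in progenitors that also had a UMI of a precursor gene. A single UMI need not come from the cell: droplets with under 100 UMIs held Cspg4 at 2.32 ± 1.33 CPM, above the progenitors, Sox10 at 0.690 ± 0.211, a range that overlapped the progenitors, and Olig1 at 5.88 (4.93 to 7.28 by library), near progenitors. In the 157 erythroid cells Cspg4 had a UMI in 1 cell and Olig1, Pdgfra and Sox10 in 0. The floor taken for a count of 0, 3 cells in 157, is a share of 1.91%. A UMI of either Olig gene was present in 42.9% of the progenitors with none of the 3 genes, in 54.0% of the 289 with 1 of them and in 9 of the 9 with at least 2. Graded by Pdgfra, Olig1 was found in 3.55% of the 8199 progenitors without Pdgfra, 9.09% of the 187 with 1 UMI and 23.7% of the 38 with at least 2. Without null replicate 2, which gave 6 of the 9 cells behind the last share, Olig1 was found in 3.33%, 7.94% and 14.3%. Olig2 was found in 42.2%, 49.2% and 57.9% of the progenitors of all libraries in the same order. The median depth rose alongside, from 8529 to 9672 and 11039 UMIs, as did the share in cluster 16, with 433, 27 and 14 cells. With every cell thinned to 2000 UMIs, Pdgfra was found in 0.951%, 1.92%, 1.43% and 0.422% of the progenitors with an Olig2 UMI and in 0.690%, 1.09%, 0.641% and 0.681% of those without, so the order held in 3 of 4 libraries, on 1 to 5 cells with both genes. Thinned Cspg4 was found in 0, 0, 2 and 0 progenitors with Olig2 and in 7, 1, 2 and 3 without. In null replicate 1 alone, with all UMIs, the Olig2 shares were 45.2%, 44.8% and 35.7%, so Olig2 did not follow the order there.

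Precursor-gene cells were then compared, within libraries, with progenitors that had no UMI of the 3 genes. Pdgfra, Sox10 and Cspg4 chose the cells and were not tested, and Olig1 and Olig2 were not used by the choice. Olig1 was at 743, 1082, 1264 and 890 CPM in the precursor-gene cells and at 5.40, 5.39, 3.77 and 5.83 CPM in the other progenitors. Olig2 was at 439, 629, 739 and 577 CPM against 112, 106, 89.0 and 96.2 CPM. Neither gene overlapped between the sets in any library.

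Both genes passed the test, beside 4.74% of the 11739 genes that were higher and 7.16% that were lower (edgeR's quasi-likelihood test, library as a block). The log2 difference was 7.29 for Olig1 (SE 0.23, adjusted p = 1.01e-212) and 2.23 for Olig2 (SE 0.19, adjusted p = 7.63e-28). This test estimates the spread over many genes together, and the sum of WT replicate 2 held 3 cells. Such p-values therefore do not measure the spread of each gene between the libraries alone. An alternative chosen after seeing the data took the 13 cells outside the OPC-like cluster. Olig1 stood 5.45 higher there and passed the same test, while Olig2 stood 1.17 higher (adjusted p = 0.154). By library these cells numbered 5, 7, 0 and 1. Their Olig1 UMIs per cell were 0 to 2 in null replicate 1, 0 to 16 in null replicate 2 and 14 in the WT replicate 2 cell. The call for Olig1 therefore rests on few cells. The precursor-gene cells had a median of 10419 UMIs against 8520. Of the marker lists of other cell types, 0 of 6 fibroblast, 1 of 7 microglia, 1 of 5 pallial, 1 of 4 choroid plexus, 2 of 6 endothelial, 3 of 7 pericyte, 4 of 5 Schwann cell and 6 of 6 erythroid markers had any UMI in the 43 cells. The summed UMIs of these lists were 0, 1, 2, 18, 2, 9, 8 and 28, beside 373 for the 7 neuron and 6622 for the 10 progenitor markers.

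Other precursor genes were detected with the members. Of 20 listed genes 13 passed the filter, of which 11 were higher and 0 lower. All 36 genes that passed through the precursor-gene cells alone were called higher. The list is therefore described over the 10 of the 13 that reached the filter in the other progenitors. Of these 8 were higher and 0 lower, with a median log2 difference of 3.10 beside -0.20 over all genes that reached it there. Lhfpl3 (100 against 45 UMIs) and Nkx2-2, a homeodomain factor of the lineage (17 against 6 UMIs), passed only through the precursor-gene cells, and no fold is given for them. Bcan and Cspg5, which encode brain proteoglycans, rose by 4.19 and 3.26, and Ptprz1, a receptor phosphatase, by 2.003. Sox8, a relative of Sox10, differed by 0.94 (adjusted p = 0.0825) and Vcan, another proteoglycan, by -0.04 (adjusted p = 0.951). The 7 genes that did not pass the filter included Gpr17, with 59 UMIs in the 43 cells against 43 in all the other progenitors, Pcdh15 with 50 against 29 and Matn4 with 22 against 6, while Bmp4 and Neu4 had none in the 43 cells. Without null replicate 2, the library in which the St18 transcript was not lower, 8 of the 10 were higher, and in the 13 cells outside the OPC-like cluster 4 of the 10.

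Genes of myelin and of later stages were largely not detected. Of 13 listed genes 5 passed the filter and 1 was higher, Cnp (60.1 ± 32.9 against 7.66 ± 1.05 CPM, 2.67), which turned to -0.85 in the 13 cells outside the OPC-like cluster. Mag, Mog, Mobp, Opalin and Enpp6 had no UMI in the 43 cells. Of the PDGF list 3 of 5 passed the filter and none was called: Pdgfa, a ligand of the receptor, differed by 0.98 (adjusted p = 0.279), and Pdgfc and Pdgfrb had no UMI in the 43 cells.

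Of the genes of the neuronal path of the MGE, Dlx2 could be read in both sets and fell by 2.27 (55 against 28684 UMIs, or 101 against 383 CPM over the summed cells). Of 8 Dlx and LIM neuron factors 7 were called lower, but 6 of the 7 reached the filter only in the other progenitors, so their calls are not read as support. Among these 6, Dlx1 was at 140 against 638 CPM and Lhx6, a LIM factor of MGE interneurons, at 68.1 against 171 CPM. Of 17 gliogenic and ventral factors 4 were higher and 8 lower, and over the 13 that passed in both sets 3 and 6. Sox9, which promotes glial fate, rose by 1.98, and the differentiation inhibitor Id3 by 4.06. The Notch effector Hes1 (1.64) and Id1 (1.51) were the others higher, and both turned direction in thinned cells (-1.36 and -0.70), while Nkx2-1, which patterns the MGE, fell by 1.82. Of 10 cycle genes 8 were lower, including Mki67 (-1.18) and Top2a (-1.46), and Ccnd1 was higher (0.76; -0.78 outside the OPC-like cluster). Without null replicate 2, 7 of 10 cycle genes were lower, and with DESeq2 3. Of 11 tested Hedgehog genes 1 was higher, Gas1 (2.26), and of 9 Notch genes 1, Hey1 (1.84), with 2 lower. St18 had 0, 2, 1 and 0 UMIs in the precursor-gene cells, too few for a fold.

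Some genes had UMIs in the 43 cells and few in the far more numerous other progenitors, such as the ligand Bmp7 (24 against 3 UMIs), the adhesion gene Cntn1 (166 against 91), the immediate early gene Egr1 (51 against 32), Cbr3 (35 against 27), Eps8 (30 against 28) and Irx1 (14 against 20). They are given as UMIs with no fold, since all 6 passed the filter only through the precursor-gene cells, as did 36 of all genes called higher. Nyap1 (0 against 1625 UMIs), Shtn1 (7 against 5748) and Crabp2 (3 against 3132) are given as UMIs for the same reason in the other direction, since they reached the filter only in the other progenitors. So did the hemoglobin genes Hba-a1 and Hba-a2 among those lower. Their difference turned direction when cells with at least 1 of the 3 genes and an Olig UMI were taken instead (1.25 and 1.60).

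**Figure D5:**
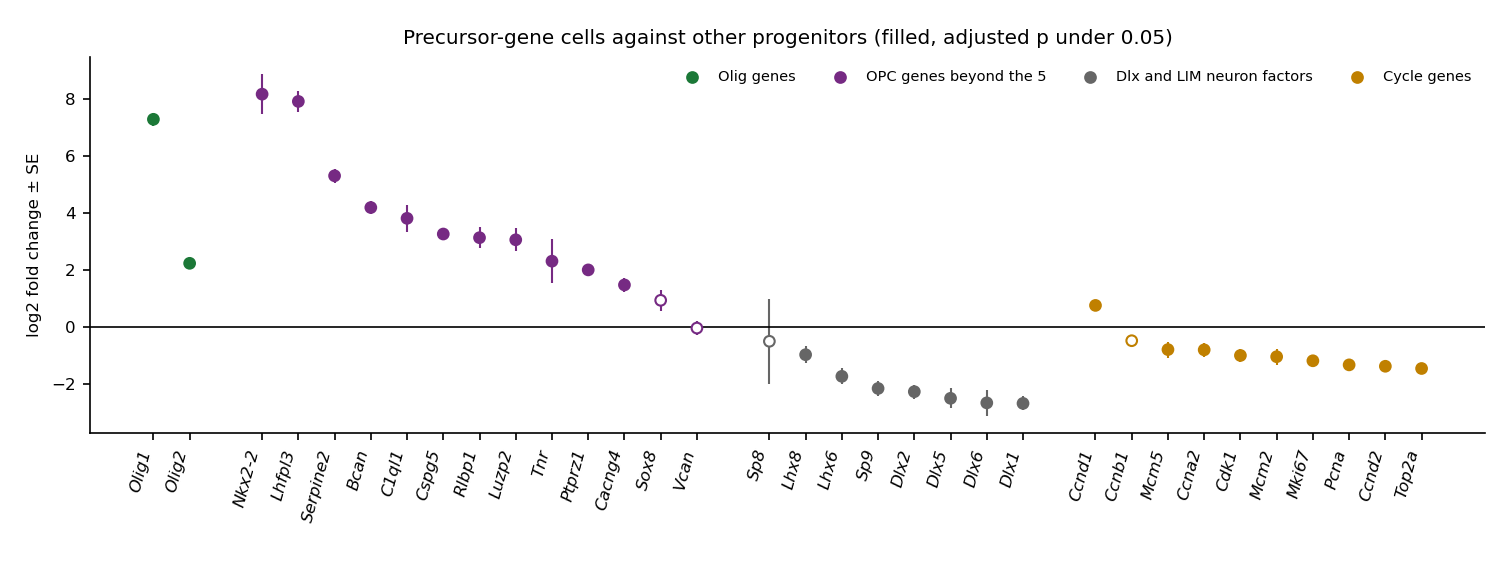
Log2 difference between precursor-gene cells and the other progenitors for Olig1, Olig2 and the tested precursor genes, Dlx and LIM factors and cycle genes, with lines of 1 SE, filled points for an adjusted p under 0.05 and open points for the others. Olig1 (7.29), Olig2 (2.23) and most precursor genes lie above 0 (Lhfpl3 and Nkx2-2 passed the filter only through the precursor-gene cells), and the Dlx and LIM factors lie below it, of which Dlx2 alone passed the filter in both sets.

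The Olig genes were also read without the precursor genes, by comparing progenitors with a UMI of both Olig genes (74, 52, 36 and 42 cells) with progenitors with neither (1557, 865, 1197 and 1019 cells), both without Pdgfra, Sox10 or Cspg4. Olig1 and Olig2 chose the cells and were not tested. Of 11009 genes 12.2% were higher and 12.6% lower in the co-detecting cells. Of the 20 precursor genes 10 passed the filter and 6 were higher, with none lower, and of the 8 that reached the filter in the progenitors with neither gene 5 were higher. The 6 were Bcan (83.2 ± 36.2 against 5.76 ± 2.39 CPM, passing only through the co-detecting cells), Rlbp1 (3.13), Cspg5 (1.95), Sox8 (1.55), Ptprz1 (1.53) and Vcan (0.55, and -0.20 in thinned cells). Lhfpl3, Nkx2-2, Gpr17 and Pcdh15, all detected in the precursor-gene cells, did not pass the filter in this comparison. The co-detecting cells had a median of 11551.5 UMIs against 7102.

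Of 17 gliogenic and ventral factors 11 were higher, including the Notch effector Hes5 (788 ± 176 against 199 ± 36.9 CPM, 1.91), Hes1 (1.49), Sox9 (1.28) and Nfia (1.09), and 4 were lower, including Nkx2-1 (-0.46). Of 9 Notch genes 6 were higher, including Notch2 (1.34), and 1 lower, and of 8 tested Hedgehog genes 3 were higher, including the receptor Ptch1 (1.34). All 7 tested Dlx and LIM factors were lower, from Dlx2 (-0.61) to Lhx6 (-2.75). Ccnd1 was higher (1.21), and 3 of the other 9 cycle genes were lower. With cells thinned to 2000 UMIs, which also left 16, 9, 2 and 6 cells with both Olig genes, 166 genes passed in place of 2732, 4 of 9 tested precursor genes were higher, 4 of 7 Dlx and LIM factors lower, and no Notch gene was called.

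The genes named by size of change at 20 CPM or more were Ramp1 (70 against 28 UMIs), 2810459M11Rik (59 against 38), Tril (81 against 62), Bcan, Sparcl1 (3.55), Sulf1, Ncald, Aldh1l1 (3.24), Rlbp1 and E130114P18Rik, of which 5 were also leading genes of cluster 16. Ramp1, 2810459M11Rik, Tril, Bcan, Sulf1 and Ncald passed the filter only through the co-detecting cells. Among all 119 genes that did so, 78 were called higher, and such calls are not read as support. Aldh1l1 and Sparcl1 are used as markers of astrocytes and radial glia. Those lower were Neb (4 against 1384 UMIs), Adamts5, Gucy1a1, Npy (-3.09), Hba-a1, Hba-a2, Lhx6, Grik3, Maf (26 against 1939 UMIs) and Gad1 (-2.67), which include genes of MGE interneurons. Of these, Neb, Adamts5, Hba-a2 and Maf reached the filter only in the progenitors with neither Olig gene. Among all 1308 genes that did so, 126 were called lower, and such calls are not read as support.

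Over single progenitors, the genes whose log-normalized counts followed Olig2 most closely were Hes5, Ptprz1, Ednrb, Zfp36l1 and Nfix, with Pearson's r from 0.330 to 0.296 (mean of the r of the 4 libraries, 8424 cells, 9604 candidate genes). For Olig1 they were Rfx4, Bcan, Id3, Fabp7 and Mfge8, from 0.234 to 0.179. Between Olig1 and Olig2 r was 0.155. These are descriptions across cells that share a library and differ in depth.

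Precursor-gene cells were 0.206%, 0.419%, 0.166% and 0.0687% of all cells, and the OPC-like cluster 0.176%, 0.303%, 0.166% and 0.137%. For precursor-gene cells the means were 0.312% ± 0.151 in null and 0.117% ± 0.0687 in WT (SD, n = 2). The difference of 0.195 percentage points had a two-sided exact permutation p of 0.333, and it ranged from 0.0886 to 0.302 when each library was left out in turn. Null replicate 2, which held 18 of the 43 cells, also had the deepest cells. With cells thinned to 2000 UMIs the counts were 8, 10, 3 and 1. Null was above WT in both forms, and 3 to 18 cells per library leave wide counting intervals, 0.0142% to 0.201% for WT replicate 2 and 0.248% to 0.661% for null replicate 2. The intervals of null replicate 1 (0.113% to 0.345%) and WT replicate 1 (0.0716% to 0.327%) overlapped each other and both of these.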

How the data were processed

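The authors aligned and counted the reads with Cell Ranger and deposited the unfiltered UMI counts of every barcode for each library, without normalization. The submitters' processing notes give Cell Ranger 5.0.1 and GRCm38, while the file headers name an earlier version. Positions were read from GENCODE M21, and replicates were numbered in accession order.

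Cells needed at least 2000 UMIs, 200 genes and at most 10% mitochondrial UMIs. Scrublet (scanpy 1.11.5) called almost no doublets by its own threshold, so the top-scoring cells were removed instead, 159 to 417 per library. Clustering used the study's settings where stated, in Seurat 5.3.0 (2000 variable genes, the S minus G2M score regressed out, 49 principal components, Louvain resolution 1.4), without its selection of components by jackstraw or separate re-clustering, and with the 5 genes and listed precursor genes left out. Clusters were named from marker lists: progenitor or neuron by the larger mean marker score, with at least 3 markers detected in 25% of cells, and other types by at least 3 markers so detected and raised over the other cells. The marker list for oligodendrocyte precursors included Pdgfra, Sox10 and Cspg4. No deposited annotation was used. The columns of all 4 libraries were used and no other.

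Counts were summed per library and set of cells, and libraries were the replicates. The test was edgeR 4.0.16 (R 4.3.3) with TMM, filterByExpr and Benjamini-Hochberg adjustment over all genes tested, two-sided, at 0.05, with the library as a block in comparisons within libraries. It was tested on simulated data. Shares of cells were tested by exact permutation over libraries, two-sided, and have exact Clopper-Pearson intervals at 95%, which cover counting error only. Figures and single values used Python 3.11.15 with matplotlib 3.10.9, pandas 2.3.3, scipy 1.17.1 and numpy 2.4.6.

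Alternatives were other scalings, no count filter, DESeq2 1.42.0, other cell filters and clusterings, thinning to 2000 UMIs, other definitions of the cell sets and each library left out. The members, lists and tests were chosen with earlier results of these data known. Beside the members and St18, the text names listed genes and, per direction, up to 10 called genes of largest change, at 20 CPM or more and alike in all 4 libraries, and the 5 genes closest in correlation to each Olig gene. Another listed gene enters the counts but is not named here.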

Additional observations from a re-analysis of the deposited data

How the results depend on the processing

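No paired analysis of null against WT was possible because the labels number no replicates, and the numbers used here follow accession order. Within libraries, leaving out the library block moved the count of genes for Olig co-detecting cells from 2732 to 1573. The 43 precursor-gene cells numbered 3 to 18 per library. At a clustering resolution of 0.8 no cluster was named OPC-like, so all of these cells lay in other clusters. For Olig1 and Olig2 the calls against neurons held under all 15 alternatives, and of 17 for precursor-gene cells 17 held for Olig1 and 16 for Olig2, where the cells outside the OPC-like cluster gave 1.17 (adjusted p = 0.154). No pericyte, fibroblast or endothelial cluster was named, so leaving those out was not run.

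Between null and WT progenitors the 4 calls became 358 with DESeq2, 146 with doublet-scored cells, 983 with no count filter, 87 with RLE, 214 thinned and 430 with library totals (77.0% higher). Leaving out each library gave 7 to 4628, the last without null replicate 1 (1987 without null replicate 2). Olig2 turned to -0.012 with doublet-scored cells, -0.0011 without WT replicate 1 and -0.035 without null replicate 1, with up to 0.13 for the other left-out libraries and 0.24 with library totals. Olig1 ranged from -0.078 (without WT replicate 1) to 0.57, Cspg4 from -0.36 (without WT replicate 2; -0.046 without null replicate 1) to 0.82 and Pdgfra from 0.40 (thinned; 0.41 without null replicate 2) to 1.35, with 0.94 past the threshold with no filter. The interaction gave 58 calls in place of 145 with DESeq2, 60 with the members among the variable genes, 24 thinned and 28 to 205 without 1 library, and Pdgfra there ranged from -0.24 (without null replicate 2) to 1.03.

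For precursor-gene cells the 1397 calls became 632 with at least 1 of the 3 genes and an Olig UMI, 765 with DESeq2, 91 outside the OPC-like cluster, 377 thinned and 814 to 1310 without 1 library (814 without WT replicate 1, 816 without null replicate 1, 907 without null replicate 2). The share of higher calls, 39.9%, was 64.3% with library totals, 54.4% with RLE, 65.0% with DESeq2 and 13.8% thinned, where the median of all genes was -1.04. Vcan, not called, gave -0.04 but 0.16 with at least 1 of the 3 genes and an Olig UMI, 0.052 with DESeq2, 0.042 with doublet-scored cells, 0.053 with no library block, 0.12 in the OPC-like cluster, 0.13 with RLE, 0.25 thinned, 0.23 with library totals and -0.17 to 0.12 without 1 library. Outside the OPC-like cluster Tnr (-7.45), Sox8 (-2.46), Cnp (-0.85) and Ccnd1 (-0.78) turned, as did Sox8 (-0.81), Hes1 (-1.36) and Id1 (-0.70) thinned, and Hba-a2 (1.60) and Hba-a1 (1.25) with the looser cell set.

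For Olig co-detecting cells the calls became 1603 with DESeq2, 5392 for Olig2 alone, 737 for Olig2 alone thinned, 166 thinned and 1467 to 2844 without 1 library (1467 without null replicate 2, 1620 without null replicate 1). Library totals made 66.1% of calls higher, against 49.3%. Hba-a1 (0.017) and Hba-a2 (0.11) turned for Olig2 alone and Vcan (-0.20) when thinned. The difference in the share of progenitors with an Olig UMI was 2.36 points thinned, 13.0 with a UMI threshold per library, 9.42 at a 5% mitochondrial limit and 7.19 to 8.91 without 1 library. Alternatives by cluster or for Olig2 alone were chosen after seeing the data. Thinning also redrew the sets of cells defined by UMIs. The cause of these changes was not tested.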
